A study of Mus musculus with 32 samples.

Results

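The 48 genes described here encode the proteasome: every gene of the deposited expression table whose symbol reads Psm, 1 letter from a to g and a number, 48 of 24538 genes. They comprise the 20S core rings, the 19S regulatory particle, the activators and inhibitor that bind the core, and the chaperones that assemble them. Of the 48, 46 passed the filter on low values, and Psma8, a testis subunit, and Psmb11, the thymic cortical beta5t subunit, did not: the deposited log2 level of Psma8 was between -1.72 and -1.63 in the 32 libraries, and that of Psmb11 between -0.63 and -0.43. The 5 immunoproteasome genes Psmb8, Psmb9, Psmb10, Psme1 and Psme2 all passed and were set against the other 43, of which 41 passed. Poly(A)-enriched RNA was sequenced from S49.1 mouse T lymphoma cells in 2 stable forms. S49 (Neo) cells carried a G418 (neomycin) resistance gene, and S49 (Bcl-2) cells carried that gene as well as Bcl-2, which blocks the mitochondrial route of apoptosis. Both were given vehicle (control) or 250 nM of the glucocorticoid dexamethasone (dex) for 24 h or 48 h, which makes 8 groups of 4 replicates. The study reports that S49 (Neo) cells lost viability with the longer dex treatment. It reports that S49 (Bcl-2) cells stayed viable and showed a block in the cell cycle. Whether dead or dying cells were removed before RNA was taken is not given in the sources used here. Each form is 1 transfected line, so the lines can differ in more than Bcl-2, and the labels do not say that the replicates were separate cultures, so the p-values measure only the spread between these samples, which may be technical.

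The proteasome degrades proteins tagged with ubiquitin. Its 20S core is a stack of rings, with alpha subunits forming the gates and beta subunits carrying the proteolytic sites, and the 19S particle recognises tagged proteins, removes the ubiquitin and unfolds them with a ring of ATPases. In lymphoid cells and under interferon, the catalytic subunits beta1, beta2 and beta5 (Psmb6, Psmb7 and Psmb5) can be replaced in new cores by beta1i, beta2i and beta5i (Psmb9, Psmb10 and Psmb8), and the core can be capped by the PA28 activator (Psme1 and Psme2), which favours peptides that fit MHC class I molecules.

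The promoters of 2 catalytic pairs are shown because the genes of each pair moved in opposite directions in S49 (Bcl-2) cells at 24 h. That of Psma4, the member that rose most with dex, is shown as well. Each sequence runs 5′ to 3′ on the gene's own strand from 250 bases before to 50 after the RefSeq start (GRCm38.p6). Psmb8 lies at chr17:34197945-34198244 on the plus strand, Psmb5 at chr14:54617946-54618245 on the minus strand, Psmb9 at chr17:34187281-34187580 on the minus strand, Psmb6 at chr11:70525107-70525406 on the plus strand and Psma4 at chr9:54950609-54950908 on the plus strand. Capitals mark matches, on either strand, to 4 motifs: the interferon-stimulated response element core (GAAA and GAAA, 2 bases apart), the gamma-activated site core TTCNNNGAA, the antioxidant response element core TGACNNNGC and the NF-Y box CCAAT.
Psmb8: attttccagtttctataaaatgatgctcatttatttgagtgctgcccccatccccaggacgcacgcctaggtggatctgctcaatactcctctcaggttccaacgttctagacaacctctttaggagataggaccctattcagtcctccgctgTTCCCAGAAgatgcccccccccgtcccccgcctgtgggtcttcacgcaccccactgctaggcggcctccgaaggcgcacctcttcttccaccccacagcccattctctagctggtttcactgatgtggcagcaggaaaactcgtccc
Psmb5: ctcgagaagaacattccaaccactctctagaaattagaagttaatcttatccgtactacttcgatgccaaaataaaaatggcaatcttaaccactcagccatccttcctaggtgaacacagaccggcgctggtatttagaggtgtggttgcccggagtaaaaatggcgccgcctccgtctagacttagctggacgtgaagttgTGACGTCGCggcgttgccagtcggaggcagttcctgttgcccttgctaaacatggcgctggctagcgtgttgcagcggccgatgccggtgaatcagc
Psmb9: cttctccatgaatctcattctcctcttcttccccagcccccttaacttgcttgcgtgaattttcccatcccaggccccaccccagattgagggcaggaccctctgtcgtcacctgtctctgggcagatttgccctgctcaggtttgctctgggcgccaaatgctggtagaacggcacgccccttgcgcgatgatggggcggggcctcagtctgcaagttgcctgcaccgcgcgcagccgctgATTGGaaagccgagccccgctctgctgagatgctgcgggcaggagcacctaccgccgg
Psmb6: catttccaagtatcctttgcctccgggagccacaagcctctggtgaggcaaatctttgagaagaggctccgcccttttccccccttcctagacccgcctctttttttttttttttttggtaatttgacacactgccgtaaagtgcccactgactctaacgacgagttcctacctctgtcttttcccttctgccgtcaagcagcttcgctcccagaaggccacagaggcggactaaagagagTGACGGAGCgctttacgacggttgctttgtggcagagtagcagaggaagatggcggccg
Psma4: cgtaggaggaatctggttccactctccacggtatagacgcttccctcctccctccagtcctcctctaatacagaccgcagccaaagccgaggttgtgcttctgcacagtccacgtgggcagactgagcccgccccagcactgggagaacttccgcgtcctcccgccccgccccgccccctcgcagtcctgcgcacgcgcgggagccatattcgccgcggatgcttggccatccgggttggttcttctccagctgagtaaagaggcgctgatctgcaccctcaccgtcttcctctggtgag
Psmb8 carried 1 gamma-activated site core, Psmb5 and Psmb6 each carried 1 antioxidant response element core, Psmb9 carried 1 reversed NF-Y box, and Psma4 held none of these letters. The Psmb9 window overlaps that of Tap1, which starts on the opposite strand. Over the windows of all 27025 genes, the interferon-stimulated core was present in 3.99%, the gamma-activated core in 9.55%, the antioxidant core in 14.0% and the NF-Y box in 41.1%. Among the 35 other proteasome genes with a window, the antioxidant core was in 6 (Psmb5, Psmb6, Psmc6, Psmd12, Psmd9 and Psme4), the NF-Y box in 13, the interferon-stimulated core in 4 and the gamma-activated core in 2. Among the 5 immunoproteasome genes, Psme1 held the interferon-stimulated core, Psmb8 the gamma-activated core, Psmb9 the NF-Y box and none the antioxidant core. The glucocorticoid receptor half-site repeat ACANNNTGT was in no member and in 7.9% of all windows, and the NF-kB core (GGG and CC, 5 bases apart), left in lower case, was in 19 of the 35, 3 of the 5 and 53.5% of all windows. A match of letters is a description and not a binding site.

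One library stood apart before any comparison. S49 (Bcl-2) 24 h dex replicate 3 differed from the mean of the other 3 libraries of its group with an SD over genes of 0.766 on the log2 scale, against 0.263 to 0.313 for those 3 and 0.107 to 0.208 in the other groups. Its proteasome genes differed from that mean by -2.68 (Psmc6) to 0.84 (Psmg3), and across the 46 tested members this difference followed the GC content of the transcripts (37.0% to 58.3%; Pearson r = 0.846, Spearman rho = 0.899, points that share this library). It was kept in the comparisons, and counts and values are also given without it at many places, an analysis chosen after seeing the data. The part of GC content in these values was not tested. The mouse gene Bcl2 was at 10.48 to 11.45 in the S49 (Bcl-2) libraries and at 7.70 to 8.62 in the S49 (Neo) libraries. The study detected the introduced protein with an antibody to human Bcl-2, and whether these reads come from the introduced gene was not tested. Of 20 thymocyte and T cell markers, 18 were present (at or above the filter on low values) in every library, Cd4 was present in 1 and Cd5 in none, while the B cell marker Pax5 and the thymic epithelial markers Foxn1, Aire and Krt5 were present in none. Of 10 B cell, 11 macrophage and granulocyte, 13 stromal, endothelial and epithelial and 5 thymic epithelial markers, 1, 2, 1 and 1 were present in every library and 7, 8, 11 and 4 in none. The summed level of the thymocyte and T cell markers lay between 16.87 and 17.04 in S49 (Bcl-2) cells after 48 h of dex and between 17.28 and 17.96 in the other groups, and in bulk RNA fewer cells of a type and less RNA per cell cannot be told apart. The summed level of the stromal list, carried by Pecam1, lay between 8.57 and 9.51 with dex and between 9.82 and 10.66 in control, and the part of these markers in the results was not tested. All levels are log2 normalized values as deposited, and the depth of each library is not given.

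In S49 (Bcl-2) cells dex divided the proteasome genes at 24 h. With all libraries the 5 immunoproteasome genes were called higher there, while 31 of the 41 other members fell and none of those rose. A gene was called at a limma adjusted p under 0.05 over all 11562 genes tested, a rule that called 67.6% of all genes in this comparison, 32.5% higher and 35.1% lower. The members' median log2 change was -0.30, where the median over all genes was -0.04. Without replicate 3 the counts were 4 higher and 35 lower, with 74.9% of all genes called: Psmb10 and Psme2 no longer passed the test and Psma4 did. At 48 h 35 of 46 members fell and 3 rose (35.2% and 33.9% of all genes) with a median of -0.34 against -0.01 over all genes. The division was not kept then: of the 5 immunoproteasome genes 1 was higher and 2 were lower, with a median of -0.10. Of the 41 others 2 were higher and 33 lower. The changes ran from -1.07 (Psmc6) to 0.84 (Psmb9) at 24 h, and from -0.64 (Psme3) to 0.76 (Psmb9) without replicate 3, and from -0.63 (Psma3) to 1.10 (Psma4) at 48 h.

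Fewer members fell in S49 (Neo) than in S49 (Bcl-2) cells, and the part of cell death in this difference was not tested. With all libraries the counts of members called in S49 (Neo) cells lay near or below the shares of all genes. At 24 h 13 of 46 members fell and 6 rose, beside 25.5% of all genes lower and 25% higher, and the median was -0.13 against -0.02 over all genes. At 48 h 5 fell and 8 rose, beside 28% and 27.3% of all genes, and the median was -0.01 against -0.00 over all genes. Where replicate 3 of the S49 (Bcl-2) 24 h dex group no longer entered the shared estimate of the spread, 27 fell and 6 rose at 24 h and 9 fell and 13 rose at 48 h, with 66.8% and 70.8% of all genes called. Of all genes 35% were then lower and 31.7% higher at 24 h, and 35.7% and 35.1% at 48 h. With all libraries, 13 members fell and Psmb8 and Psmb9 rose in both lines at 24 h. In the same fit at 48 h, Psmb10, Psmf1, Psmd2 and Psmd11 fell in both and Psma4, Psmb1 and Psmb9 rose in both. Psmc3 and Psmc4, 2 of the ATPases, fell in S49 (Bcl-2) and rose in S49 (Neo) cells. The share of all genes called in both lines was not taken, so these joint counts only describe the members. They depend on that replicate 3, without which more members were called in S49 (Neo) cells.

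**Figure D1:**
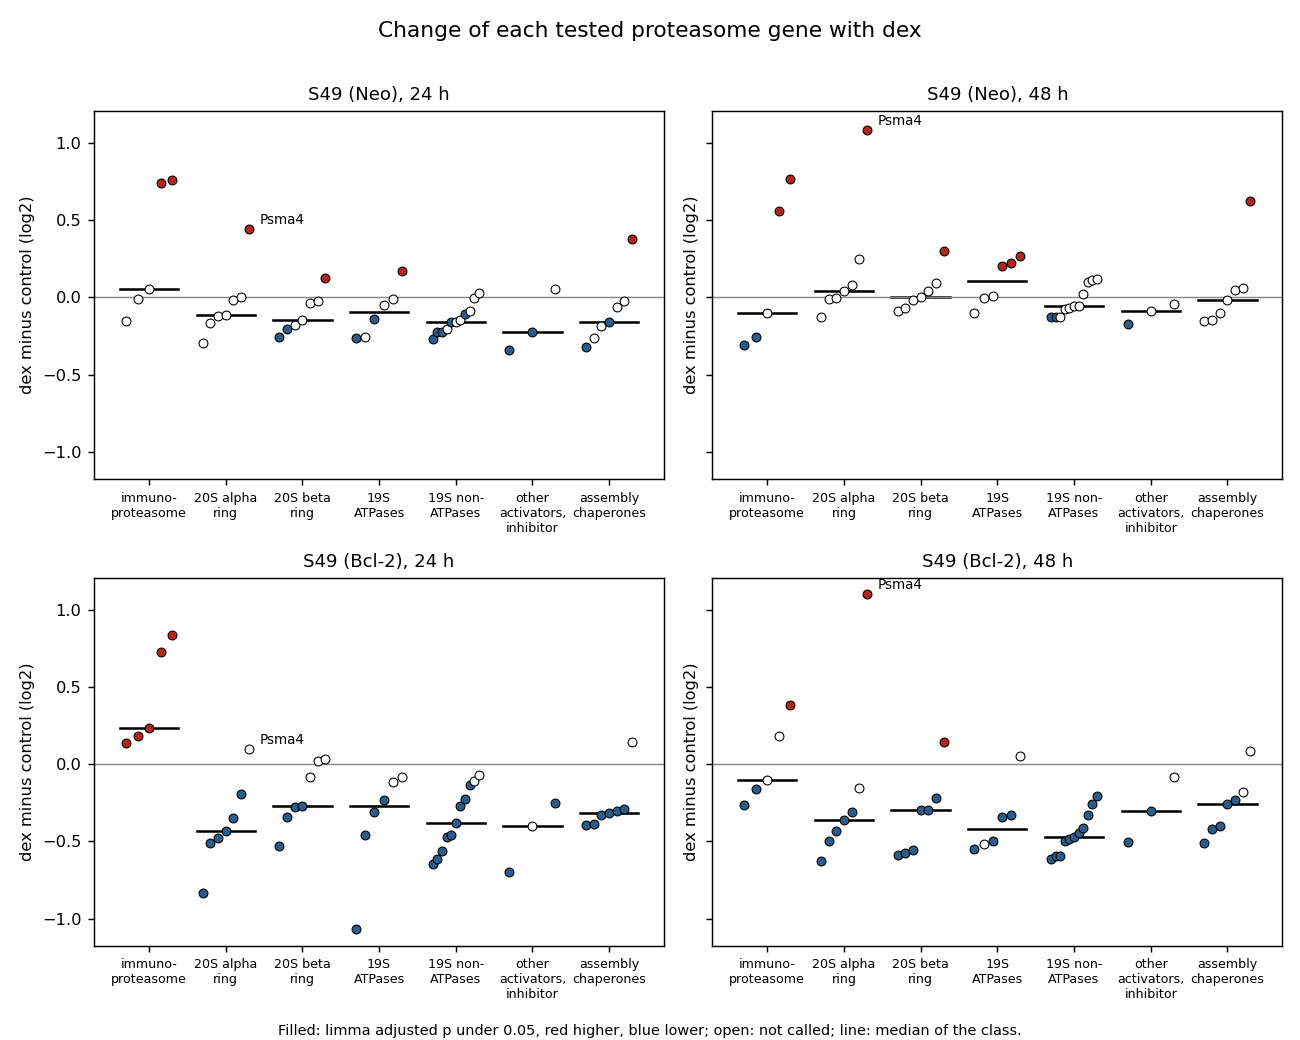
Change of each tested proteasome gene with dex (log2, dex minus control) in the 4 comparisons of line and time, grouped by role on the x axis, with the class median as a line and points filled where the limma adjusted p was under 0.05 (red higher, blue lower). Most members outside the immunoproteasome lie below 0 in S49 (Bcl-2) cells at both times, with medians over all 46 of -0.30 and -0.34, and in S49 (Neo) cells at 48 h they scatter around 0 with a median of -0.01.

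Psmb8, the beta5i catalytic subunit, rose in 3 of the 4 comparisons. Its levels in replicates 1 to 4 of S49 (Neo) cells were 12.52, 12.32, 12.27 and 12.37 in control and 13.21, 13.09, 13.09 and 13.14 with dex at 24 h, a change of 0.76 (SE 0.0945, 1.69-fold, limma adjusted p = 1.1e-07). At 48 h they were 12.36, 12.20, 12.21 and 12.32 in control and 13.10, 13.01, 12.93 and 13.10 with dex, a change of 0.77 (SE 0.0945, 1.70-fold, adjusted p = 6.89e-08). The control and dex libraries of this line did not overlap at either time. The 24 h levels in S49 (Bcl-2) cells were 12.49, 12.18, 12.18 and 12.40 in control and 13.02, 12.81, 13.40 and 12.92 with dex, a rise of 0.73 (SE 0.0945, 1.65-fold, adjusted p = 1.48e-07), and 0.60 without replicate 3. At 48 h the controls were at 12.45, 12.22, 12.23 and 12.42 and the dex libraries at 12.57, 12.57, 12.31 and 12.60, so that replicate 3 of the dex group lay among the controls. That change of 0.18 did not pass the test (adjusted p = 0.0869), passed it without dex replicate 3 of this 48 h group (0.25, adjusted p = 0.0264), and passed it where replicate 3 of the 24 h dex group was left out of the estimate of the spread (adjusted p = 0.0223).

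Psmb9, the beta1i catalytic subunit, rose in all 4 comparisons. Its levels in S49 (Bcl-2) cells at 24 h were 10.97, 10.79, 10.84 and 11.07 in control and 11.73, 11.62, 11.99 and 11.69 with dex, a rise of 0.84 (SE 0.0798, 1.79-fold, adjusted p = 4.65e-10) that was 0.76 without replicate 3. At 48 h they were 11.14, 11.13, 11.16 and 11.42 in control and 11.61, 11.66, 11.42 and 11.68 with dex, a rise of 0.38 (SE 0.0798, adjusted p = 0.000123). The highest control and the lowest dex library met at 11.42 at 48 h, and at 24 h the groups were apart. The levels in S49 (Neo) cells at 24 h were 11.26, 11.14, 11.03 and 11.21 in control and 11.91, 11.92, 11.88 and 11.87 with dex (0.74, SE 0.0798, 1.67-fold, adjusted p = 8.58e-09). At 48 h they were 11.34, 11.11, 11.30 and 11.38 in control and 11.82, 11.77, 11.81 and 11.96 with dex (0.56, SE 0.0798, 1.48-fold, adjusted p = 7.54e-07). Control and dex libraries were apart at both times. Tap1, the peptide transporter subunit that overlaps Psmb9 on the opposite strand, rose in all 4 comparisons, by 1.47 and 1.21 in S49 (Bcl-2) and by 1.22 and 1.02 in S49 (Neo) cells at 24 h and 48 h. Whether the counting used strand is not given in the sources used here, so reads of these overlapping genes cannot be told apart where they share bases.

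Psmb10, the beta2i subunit and the third of the inducible catalytic genes, did not follow the other pair. Its levels in S49 (Neo) cells at 48 h were 10.40, 10.26, 10.36 and 10.34 in control and 10.05, 9.95, 9.98 and 10.14 with dex, a fall by 0.31 (SE 0.0908, adjusted p = 0.00514) with no overlap of the groups. The levels in S49 (Bcl-2) cells at 48 h were 10.21, 10.11, 10.17 and 10.29 in control and 10.01, 10.07, 9.69 and 9.94 with dex, and it fell by 0.27 (adjusted p = 0.0105). Every dex library lay below every control there, with replicate 3 lowest, and without that replicate the change was -0.19 (adjusted p = 0.0703). At 24 h it was called higher in S49 (Bcl-2) cells (0.23, adjusted p = 0.0265), with 10.40, 10.29, 10.33 and 10.36 in control and 10.38, 10.40, 10.99 and 10.53 with dex. Replicate 4 was above every control, replicate 3, the library that stands apart, was highest, and without replicate 3 the change was 0.09 (adjusted p = 0.201). That call was also lost without control replicate 2 (adjusted p = 0.0648), without a filter, with median centring and in a fit of the line alone, which also ended the call at 48 h. The change was -0.15 in S49 (Neo) cells at 24 h (adjusted p = 0.17), and passed the test in a fit of that line alone and where the library that stands apart no longer entered the spread (adjusted p = 0.0281).

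The PA28 genes changed little and not in 1 direction. Psme1, PA28 alpha, fell in S49 (Neo) cells at 48 h, from 12.03, 11.85, 11.99 and 12.14 in control to 11.74, 11.70, 11.68 and 11.88 with dex (-0.25, SE 0.0636, adjusted p = 0.00124), with the lowest control below the highest dex library. It rose in S49 (Bcl-2) cells at 24 h by 0.18 (adjusted p = 0.014), and by 0.14 without replicate 3 (adjusted p = 0.0454). Psme2, PA28 beta, was at 11.90, 11.89, 11.95 and 12.06 in control and 11.81, 11.87, 11.75 and 11.72 with dex in S49 (Bcl-2) cells at 48 h, where it fell by 0.16 (adjusted p = 0.0118), with every dex library below every control. Its rise of 0.14 at 24 h in this line (adjusted p = 0.0279) was 0.09 without replicate 3 (adjusted p = 0.113). The changes of Psme2 in S49 (Neo) cells were -0.01 and -0.10 (adjusted p = 0.872 and 0.112, the latter 0.0496 without the library that stands apart), and that of Psme1 at 24 h was 0.05 (adjusted p = 0.523). The rise of Psme1 did not pass without dex replicate 4 (adjusted p = 0.0508), nor the fall of Psme2 without control replicate 4 (adjusted p = 0.0617), nor either call of Psme2 with libraries centred on their medians. Psme2b, a near copy of Psme2 at a lower level (7.66 to 8.77), may share reads with it.

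**Figure D2:**
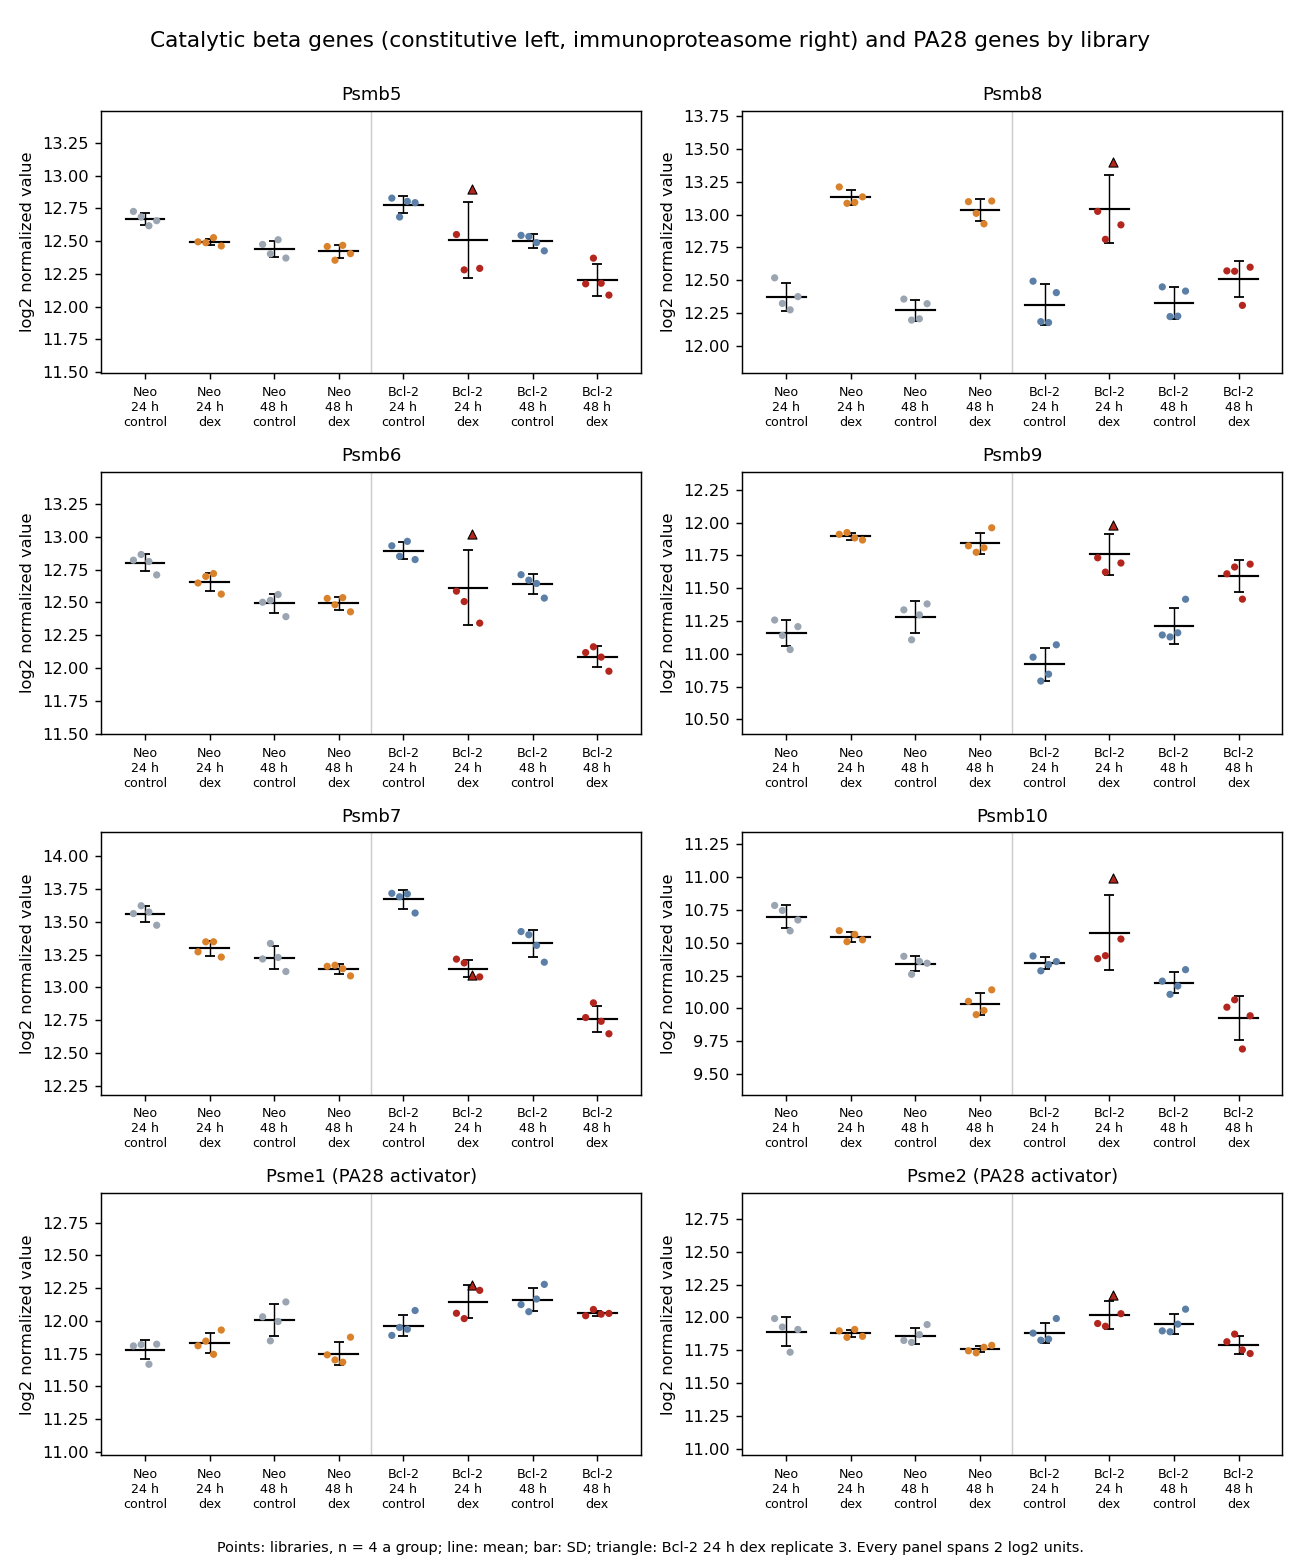
Deposited log2 normalized levels of the catalytic pairs Psmb5 and Psmb8, Psmb6 and Psmb9, Psmb7 and Psmb10, and of the PA28 genes Psme1 and Psme2, in each of the 32 libraries by group, with the mean and SD of 4 replicates and the library that stands apart as a triangle. Psmb8 and Psmb9 sit higher with dex in both lines at 24 h, and Psmb5, Psmb6 and Psmb7 sit lower with dex in S49 (Bcl-2) cells at 48 h.

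The constitutive catalytic genes fell in S49 (Bcl-2) cells at both times, while Psmb10 also fell at 48 h and Psmb8 was not called then. Psmb7, the trypsin-like beta2 subunit, fell at 24 h from 13.72, 13.69, 13.71 and 13.57 to 13.22, 13.19, 13.09 and 13.08 (-0.53, SE 0.0549, adjusted p = 2.56e-09), and at 48 h from 13.43, 13.40, 13.32 and 13.19 to 12.77, 12.88, 12.74 and 12.65 (-0.58, SE 0.0549, adjusted p = 3.11e-10). Psmb6, the caspase-like beta1 subunit, fell at 48 h from 12.71, 12.67, 12.64 and 12.53 to 12.12, 12.16, 12.08 and 11.98 (-0.56, SE 0.0832, 0.681-fold, adjusted p = 1.14e-06). The groups were apart in each of these 3 comparisons. Psmb5, the chymotrypsin-like beta5 subunit, fell by 0.27 at 24 h and by 0.30 at 48 h (adjusted p = 0.00515 and 0.0024), and at 48 h its control libraries were at 12.54, 12.53, 12.49 and 12.43 and its dex libraries at 12.17, 12.37, 12.18 and 12.09. At 24 h, where Psmb6 fell by 0.28 (adjusted p = 0.00429), replicate 3 was the highest dex library for both genes (12.90 for Psmb5 and 13.02 for Psmb6, against 12.28 to 12.55 and 12.34 to 12.59), and without it the changes were -0.40 and -0.42. Only Psmb7 at 24 h passed the test in S49 (Neo) cells (-0.26, adjusted p = 0.000246), while Psmb5 and Psmb6 changed by -0.18 and -0.14 at 24 h (adjusted p = 0.0748 and 0.153) and passed in a fit of that line alone and without the library that stands apart (adjusted p = 0.00369 and 0.0133). At 48 h the changes of Psmb5, Psmb6 and Psmb7 in this line were -0.02, 0.00 and -0.09 (adjusted p = 0.872, 0.985 and 0.195).

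The balance within each pair was taken as the log2 ratio of the inducible to the constitutive gene in the same library, which does not depend on how libraries were scaled but is not a ratio of molecules. Psmb8 to Psmb5 was at -0.46 ± 0.13 (SD, n = 4) in control and 0.54 ± 0.07 with dex in S49 (Bcl-2) cells at 24 h, a shift of 1.00 (exact permutation test, two-sided, p = 0.0286, adjusted over 12 ratios p = 0.0381). The shift was 0.48 at 48 h in that line and 0.94 and 0.78 at 24 h and 48 h in S49 (Neo) cells, each with the same exact p. Psmb9 to Psmb6 shifted by 1.12 and 0.94 in S49 (Bcl-2) and by 0.88 and 0.56 in S49 (Neo) cells, again at an exact p of 0.0286, which is the smallest that 4 against 4 libraries can give. For both pairs every dex library was above every control in all 4 comparisons. Psmb10 to Psmb7 shifted by 0.76 at 24 h in S49 (Bcl-2) cells (0.60 without replicate 3) at that same p, and by 0.31 at 48 h (exact permutation p = 0.0571, adjusted p = 0.0623). This ratio differed in S49 (Neo) cells by 0.11 at 24 h and by -0.22 at 48 h (exact permutation p = 0.143 and 0.0571), neither past the test. Taken between libraries of the same replicate number, which are not stated to be pairs, the difference was above 0 in all 4 at 24 h (0.04 to 0.20) and below 0 in all 4 at 48 h (-0.29 to -0.14).

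**Figure D3:**
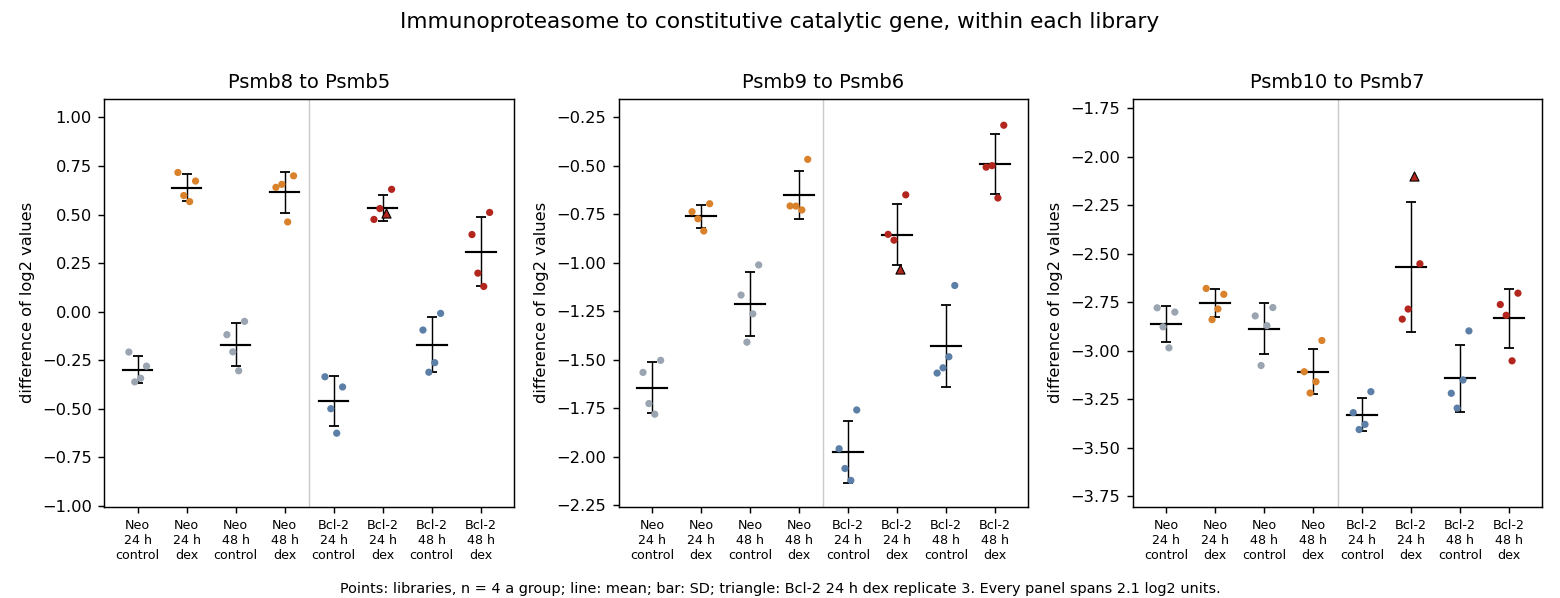
Log2 ratio of each inducible to its constitutive catalytic gene in every library, by line, time and treatment, with the mean and SD of 4 libraries and the library that stands apart as a triangle. For Psmb8 to Psmb5 and Psmb9 to Psmb6 all dex libraries lie above their controls, and for Psmb10 to Psmb7 the groups are apart only in S49 (Bcl-2) cells at 24 h.

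The alpha ring, which opens and closes the core, held the largest rise and some of the largest falls. Psma4, the alpha3 subunit, was at 13.01, 13.08, 13.03 and 12.96 in control and 14.15, 14.14, 14.13 and 14.00 with dex in S49 (Neo) cells at 48 h, a rise of 1.08 (SE 0.146, 2.12-fold, adjusted p = 3.37e-07). In S49 (Bcl-2) cells at 48 h it was at 13.17, 13.06, 13.03 and 12.99 in control and 14.14, 14.14, 14.27 and 14.10 with dex, a rise of 1.10 (SE 0.146, 2.14-fold, adjusted p = 1.63e-07). In both lines every dex library lay well above every control. At 24 h it rose in S49 (Neo) cells, from 13.31, 13.44, 13.33 and 13.23 to 13.80, 13.77, 13.79 and 13.71 (0.44, adjusted p = 0.0133). Its controls in S49 (Bcl-2) cells at 24 h were at 13.36, 13.39, 13.37 and 13.29 and its dex libraries at 13.77, 13.79, 12.57 and 13.67 (0.10, adjusted p = 0.577). The library that stands apart was the only dex library below the controls, and without it the change was 0.39 (adjusted p = 3.78e-08).

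None of the other 6 tested alpha genes was called higher in any dex comparison with all libraries. All 6 fell at 24 h and 5 fell at 48 h in S49 (Bcl-2) cells, beside 35.1% and 35.2% of all genes lower. The ring median, which includes Psma4, was -0.43 and -0.36. None of the 6 passed the test in S49 (Neo) cells at either time, but the estimate of the spread holds the library that stands apart. Without it 4 were called lower at 24 h (Psma1, Psma2, Psma3 and Psma5), and at 48 h Psma3 was called lower and Psma6, the alpha1 subunit, higher (0.25, adjusted p = 3.09e-06). Over all genes in that fit 35% were lower at 24 h, and 35.7% lower and 35.1% higher at 48 h. Psma3, the alpha7 subunit, fell at 48 h in S49 (Bcl-2) cells from 13.30, 13.21, 13.11 and 13.00 to 12.60, 12.60, 12.50 and 12.42 (-0.63, SE 0.149, adjusted p = 0.000534), with the groups apart. At 24 h it fell by 0.83 (adjusted p = 2.02e-05), with replicate 3 at 11.81 and the other dex libraries at 12.85 to 13.03, and by 0.54 without that replicate. Its changes in S49 (Neo) cells were -0.29 and -0.13 (adjusted p = 0.105 and 0.494, and 5.44e-05 and 0.0485 without that library).

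Psma4 relative to the mean of the other 6 alpha genes in the same library was at -0.10 in S49 (Neo) controls and 0.95 ± 0.04 (SD, n = 4) with dex at 48 h. In S49 (Bcl-2) cells at 48 h it was at -0.09 in control and 1.41 ± 0.09 with dex. At 24 h it was at -0.05 in the controls of both lines and at 0.51 with dex in both, with an SD of 0.02 in S49 (Neo) and 0.28 in S49 (Bcl-2) cells, where it ranged from 0.09 to 0.65. Every dex library was above every control of its line and time by this measure, the library that stands apart included. AY074887, which overlaps Psma4 on the opposite strand at levels of 3.51 to 5.65, rose in all 4 comparisons (by 0.82, 1.90, 0.42 and 1.16 in S49 (Bcl-2) at 24 h and 48 h and S49 (Neo) at 24 h and 48 h), and reads in the shared bases cannot be told apart.

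**Figure D4:**
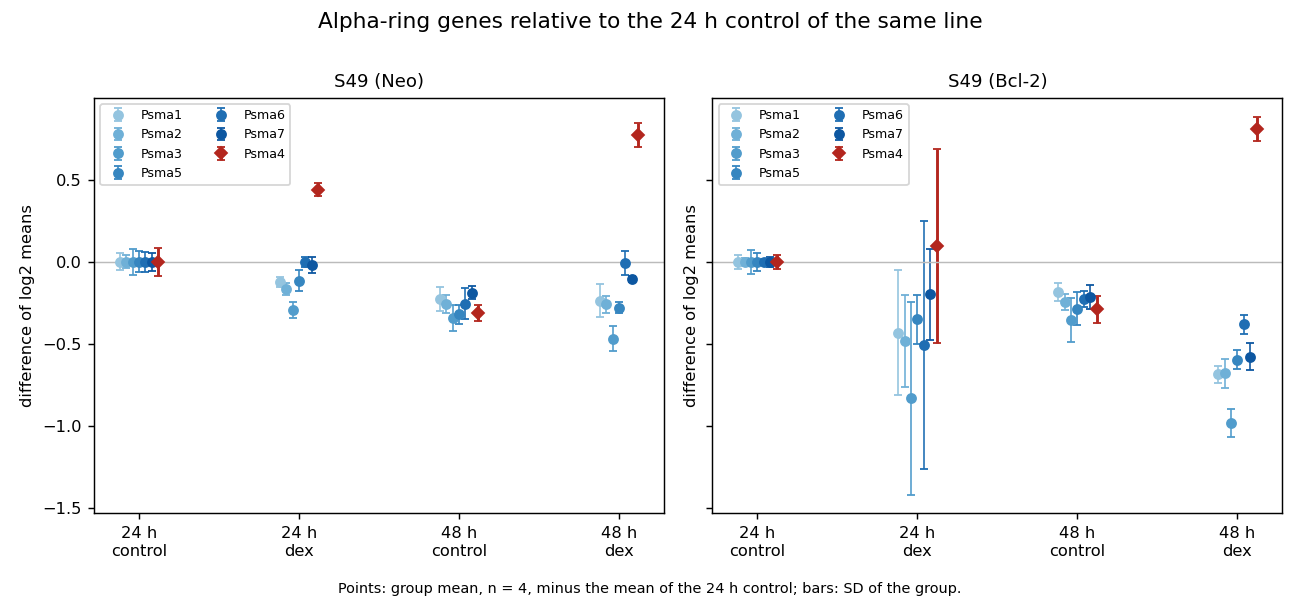
Mean log2 level of the 7 tested alpha ring genes in each group of 4 libraries, less the mean of the 24 h control of the same line, with the SD of the group as bars. Psma4 (red diamonds) is the only gene above 0 with dex at 48 h in both lines, and the wide bars at 24 h with dex in S49 (Bcl-2) cells include the library that stands apart.

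Among the noncatalytic beta genes, Psmb1, the beta6 subunit, was the only one called higher with all libraries. It rose in S49 (Neo) cells by 0.12 at 24 h (SE 0.0400, adjusted p = 0.0106) and, from 12.83, 12.88, 12.92 and 12.88 in control to 13.20, 13.20, 13.13 and 13.19 with dex, by 0.30 at 48 h (adjusted p = 2.25e-07). In S49 (Bcl-2) cells it changed by 0.03 at 24 h (adjusted p = 0.476) and rose by 0.14 at 48 h (adjusted p = 0.00291), from 12.97, 12.95, 12.89 and 12.90 to 13.08, 13.11, 13.03 and 13.06. The groups were apart in both lines at 48 h. The other 6 tested beta genes outside the immunoproteasome all fell at 48 h in S49 (Bcl-2) cells, beside 35.2% of all genes lower. None of them passed the test at 48 h in S49 (Neo) cells, where Psmb2, the beta4 subunit, was called higher without the library that stands apart (0.09, adjusted p = 0.0364).

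The ATPase ring of the 19S particle unfolds substrates and feeds them into the core, and its 6 genes split between the lines. At each time 4 of 6 fell in S49 (Bcl-2) cells (medians -0.27 and -0.42; 35.1% and 35.2% of all genes fell), and 5 at each time without the library that stands apart. The counts for S49 (Neo) cells were 2 lower and 1 higher at 24 h, near the 25.5% and 25% of all genes, and 3 higher and none lower at 48 h, beside 27.3% and 28% (medians -0.09 and 0.11). They were 3 and 1 at 24 h and as before at 48 h without the library that stands apart. Over all genes in that fit 37.2% and 41.5% were lower in S49 (Bcl-2) cells at 24 h and 48 h. The shares lower and higher in S49 (Neo) cells were 35% and 31.7% at 24 h and 35.7% and 35.1% at 48 h. Psmc4, Rpt3, rose at 48 h in S49 (Neo) cells from 13.07, 13.03, 13.06 and 12.99 to 13.23, 13.26, 13.27 and 13.27 (0.22, SE 0.0711, adjusted p = 0.0100), and fell in S49 (Bcl-2) cells from 13.16, 13.19, 13.09 and 12.94 to 12.77, 12.85, 12.74 and 12.66 (-0.34, adjusted p = 0.000123). The groups were apart in both lines, in opposite directions. Psmc1, Rpt2, rose in S49 (Neo) cells at 24 h (0.17, adjusted p = 0.00511, not past the test with median centring) and at 48 h (0.26, SE 0.0490, adjusted p = 3.9e-05), and changed by -0.08 and 0.05 in S49 (Bcl-2) cells (adjusted p = 0.127 and 0.352). Psmc6, Rpt4, had the largest fall of any member, by 1.07 (SE 0.32, adjusted p = 0.0046) at 24 h in S49 (Bcl-2) cells, where replicate 3 was at 9.86 and the other dex libraries at 12.58, 12.56 and 12.47 beside controls at 13.02, 12.95, 12.93 and 12.86. Without that library the fall was by 0.40, and at 48 h the change of -0.52 (adjusted p = 0.151) was called lower once that library no longer entered the spread.

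The 11 non-ATPase genes of the 19S particle, its scaffolds, ubiquitin receptor and lid, were in no dex comparison called higher with all libraries. Of the 11, 9 fell at 24 h and all fell at 48 h in S49 (Bcl-2) cells (medians -0.38 and -0.47), beside 35.1% and 35.2% of all genes. In S49 (Neo) cells 5 fell at 24 h and 2 at 48 h (medians -0.16 and -0.05), beside 25.5% and 28% of all genes. Without the library that stands apart, 11 were called lower at each time in S49 (Bcl-2) cells and 9 and 2 in S49 (Neo) cells, where Psmd4, a ubiquitin receptor, Psmd6 and Psmd13, both lid subunits, were called higher at 48 h (0.10, 0.12 and 0.11, adjusted p = 0.0107, 0.0358 and 0.00263). Over all genes in that fit 37.2% and 41.5% were lower in S49 (Bcl-2) and 35% and 35.7% in S49 (Neo) cells, where 35.1% were higher at 48 h. Psmd2, the Rpn1 scaffold of the base, fell in S49 (Bcl-2) cells at 48 h from 14.69, 14.68, 14.65 and 14.59 to 14.09, 14.08, 14.04 and 13.94 (-0.62, SE 0.0443, 0.652-fold, adjusted p = 8.26e-13). It fell in S49 (Neo) cells at 48 h from 14.67, 14.67, 14.68 and 14.62 to 14.53, 14.55, 14.57 and 14.50 (-0.12, adjusted p = 0.0182), a call that was lost without dex replicate 4 (adjusted p = 0.0513) and with median centring. The groups were apart in both lines. Psmd14, the Rpn11 deubiquitinase that removes the ubiquitin chain, fell at 48 h in S49 (Bcl-2) cells from 12.81, 12.71, 12.67 and 12.60 to 12.16, 12.15, 12.06 and 12.03 (-0.60, SE 0.109, adjusted p = 2.18e-05), with the groups apart. Psmd14 in S49 (Neo) cells was at 12.56, 12.69, 12.60 and 12.53 in control and 12.52, 12.60, 12.48 and 12.48 with dex, with the groups overlapping (-0.08, adjusted p = 0.582). Psmd1, the Rpn2 scaffold, fell in S49 (Neo) cells at 24 h by 0.27 (adjusted p = 0.00771), and Psmd11, the Rpn6 lid subunit, fell there by 0.13 at 48 h (adjusted p = 0.00832).

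Of the other regulators of the core, Psme3, the nuclear PA28 gamma, fell in 3 of the 4 comparisons. It went in S49 (Bcl-2) cells at 24 h from 14.24, 14.18, 14.16 and 14.08 to 13.60, 13.56, 13.30 and 13.40 (-0.70, SE 0.0629, 0.616-fold, adjusted p = 1.56e-10), and the groups were apart. It fell by 0.50 at 48 h in that line (adjusted p = 5.53e-08) and by 0.34 at 24 h in S49 (Neo) cells (adjusted p = 4.61e-05), and changed by -0.09 in S49 (Neo) cells at 48 h (adjusted p = 0.23). Psmf1, the PI31 protein that can inhibit the core in vitro, fell in all 4 comparisons, by 0.17 at 48 h in S49 (Neo) cells (adjusted p = 0.0077) and by 0.31 at 48 h in S49 (Bcl-2) cells (adjusted p = 1e-05).

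The assembly chaperones mostly fell in S49 (Bcl-2) cells, 6 of 7 at 24 h and 5 at 48 h, beside 35.1% and 35.2% of all genes. Their medians were -0.32 and -0.26. Psmd9, p27, which helps to build the 19S base, rose in S49 (Neo) cells. It rose at 48 h from 10.51, 10.53, 10.57 and 10.45 to 11.22, 11.10, 11.13 and 11.09 (0.62, SE 0.0733, 1.54-fold, adjusted p = 3.04e-08), with the groups apart. At 24 h it rose from 10.86, 10.82, 10.77 and 10.80 to 11.28, 11.15, 11.23 and 11.11 (0.38, adjusted p = 8.14e-05), and in S49 (Bcl-2) cells it changed by 0.14 and 0.09 (adjusted p = 0.0852 and 0.296). Psmg1, the PAC1 chaperone of the alpha ring, fell in S49 (Neo) cells at 24 h by 0.32 (SE 0.0665, adjusted p = 0.000175).

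The response of the immunoproteasome genes to dex was lower at 48 h than at 24 h in S49 (Bcl-2) cells for all 5. The difference of the responses, tested as an interaction in the same limma fit, was -0.54 for Psmb8 (SE 0.134, adjusted p = 0.00201), -0.46 for Psmb9 (adjusted p = 0.00204), -0.50 for Psmb10 (adjusted p = 0.00293), -0.28 for Psme1 (adjusted p = 0.0142) and -0.30 for Psme2 (adjusted p = 0.00328). Without the library that stands apart these were -0.42, -0.38, -0.36, -0.24 and -0.25, all still past the test. Over the 46 members 11 responses were lower at 48 h and 1, that of Psma4 (1.00, adjusted p = 0.000352), was higher, beside 21.3% and 17.1% of all genes. Without the library that stands apart the difference for Psma4 was 0.71. Of the other members, the response of Psmd13, the Rpn9 lid subunit, was lower by 0.41 (adjusted p = 0.000116) and that of Psmd2 by 0.34 (adjusted p = 8.89e-05).

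Over time in S49 (Neo) cells 3 responses were higher at 48 h and 1 lower, beside 8.72% and 10.5% of all genes. The response of Psma4 was higher by 0.64 (adjusted p = 0.0287), that of Psme3 by 0.25 (adjusted p = 0.0478) and that of Psmb1 by 0.18 (adjusted p = 0.0262), and that of Psme1 was lower (-0.31, adjusted p = 0.0167). These calls lay near the threshold: that of Psma4 was lost when any of 4 single libraries was left out (adjusted p = 0.0507 to 0.0614), that of Psme3 for any of 12 (0.0541 to 0.124) and that of Psme1 without 48 h control replicate 4 (0.0533). Psmb8 differed by 0.01 between the times in this line (adjusted p = 0.984) and Psmb9 by -0.18 (adjusted p = 0.305). Without replicate 3 of the S49 (Bcl-2) 24 h dex group, which enters here only through the spread, 14 were higher and 1 lower, with 39.8% of all genes called. Each of these contrasts shares its libraries with the dex comparisons above.

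Between the lines, the dex response of 33 of the 46 members at 48 h was lower in S49 (Bcl-2) than in S49 (Neo) cells and that of none was higher, beside 20.9% and 19.9% of all genes. The median difference was -0.41, where that over all genes was -0.00. The dex libraries of the lines may differ in their share of dying cells and in cell cycle phase. The part of either in these differences was not tested. By class, 11 of 11 19S non-ATPases were lower, 5 of 6 ATPases, 6 of 7 beta genes, 4 of 7 alpha genes, 5 of 7 chaperones and 1 of the 5 immunoproteasome genes. Leaving out the library that stands apart gave 38 lower and none higher, with 59.5% of all genes called. Psmd13 differed by -0.59 (SE 0.0771, adjusted p = 5.76e-07). Its levels were 12.52, 12.59, 12.55 and 12.55 in control and 12.65, 12.68, 12.66 and 12.67 with dex in S49 (Neo) cells, and 12.59, 12.58, 12.58 and 12.54 in control and 12.11, 12.16, 12.05 and 12.04 with dex in S49 (Bcl-2) cells. The control libraries of both lines overlapped, and the dex libraries lay above them in S49 (Neo) and below them in S49 (Bcl-2) cells. Psmc4 differed by -0.56 (adjusted p = 5.93e-05), Psmb6 by -0.56 (adjusted p = 0.000385) and Psmb7 by -0.49 (adjusted p = 1.12e-05).

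Of the immunoproteasome genes only Psmb8 responded differently between the lines at 48 h (-0.58, SE 0.134, adjusted p = 0.000901). For Psmb9 the difference was -0.18 (95% interval -0.41 to 0.05, adjusted p = 0.214), and for Psmb10, Psme1 and Psme2 it was 0.04, 0.15 and -0.06 (adjusted p = 0.845, 0.188 and 0.616). For Psma4, the largest riser, it was 0.02 (95% interval -0.41 to 0.44, adjusted p = 0.968). At 24 h 11 members responded lower in S49 (Bcl-2) cells and 1 higher, beside 8.51% and 11% of all genes, and without replicate 3 the counts were 29 and 1 with 35.9% of all genes called. The lower ones included Psmd12, the Rpn5 lid subunit (-0.44, adjusted p = 0.0196), Psme3 (-0.36, adjusted p = 0.00551) and Psmb7 (-0.27, adjusted p = 0.0152). The higher one was Psmb10 (0.38, adjusted p = 0.0352), which was 0.24 without replicate 3 (adjusted p = 0.0333) and did not pass when any of 8 other single libraries was left out (adjusted p = 0.0512 to 0.0703), without a filter or with median centring. Centring also ended the call of Psmb7. Psmb8 and Psmb9 differed by -0.03 and 0.10 at 24 h (adjusted p = 0.882 and 0.549).

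**Figure D5:**
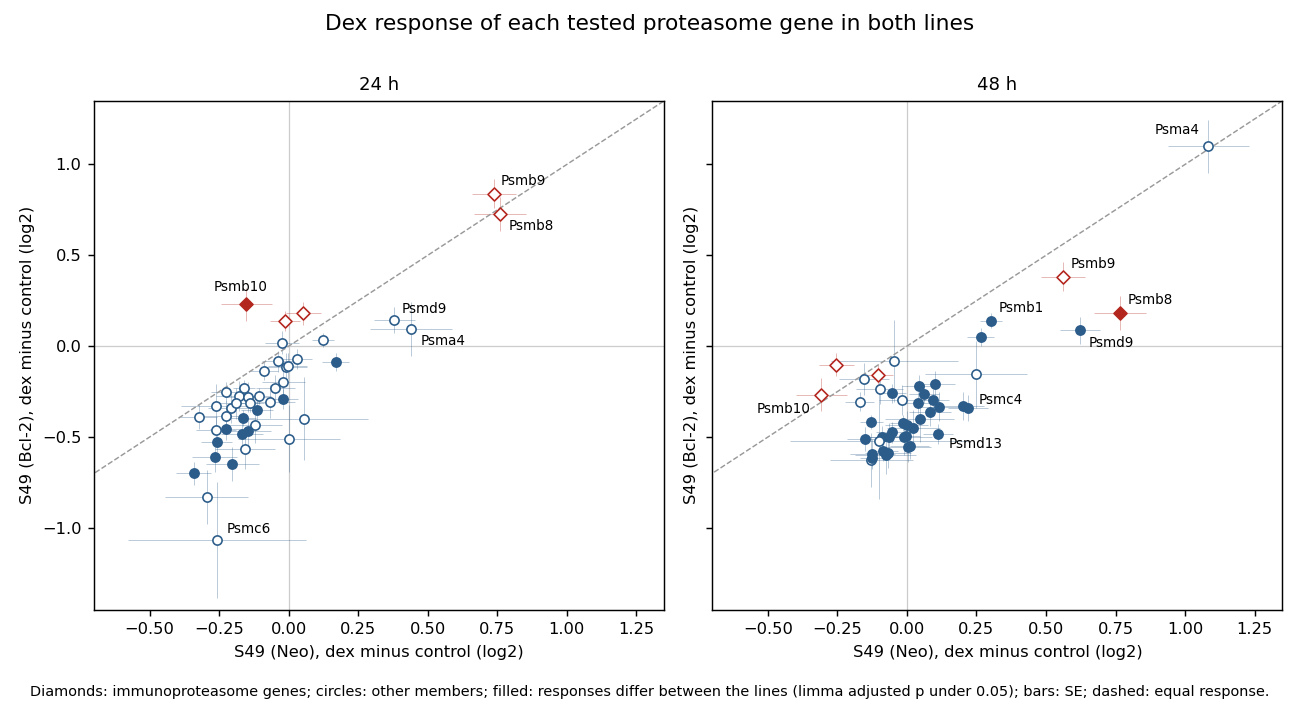
Dex response (log2, dex minus control) of each tested proteasome gene in S49 (Neo) cells on the x axis and S49 (Bcl-2) cells on the y axis at 24 h and 48 h, with standard errors. Diamonds are the 5 immunoproteasome genes and filled marks are responses that differed between the lines, 12 at 24 h and 33 at 48 h, where all 33 lie below the line of equal response.

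The members called between the lines without dex were few with all libraries and more without the library that stands apart. At 24 h 2 members were higher and 2 lower in S49 (Bcl-2) than in S49 (Neo) controls, beside 12.9% and 14% of all genes, and at 48 h 2 were higher and none lower, beside 11.7% and 14.2%. Without that library, which enters here only through the spread, 7 were higher and 4 lower at 24 h and 10 higher and 1 lower at 48 h, with 43.4% and 42.5% of all genes called. Psmc1 was higher at both times (0.36 and 0.39, adjusted p = 1.08e-06 and 3.75e-07), and Psma5, the alpha5 subunit, was higher at 48 h (0.16, adjusted p = 0.0382). At 24 h Psme1 was higher (0.18, adjusted p = 0.0314), and Psmb10 (-0.35, adjusted p = 0.00353) and Psmb9 (-0.24, adjusted p = 0.0249) were lower. Leaving out single libraries ended the calls of Psmb9 (adjusted p up to 0.101), Psme1 (up to 0.128) and Psma5 (up to 0.141), each for 3 or more libraries.

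The members were lower in the older cultures of both lines without dex. From 24 h to 48 h 32 of 46 fell and 2 rose in S49 (Bcl-2) controls, beside 23.6% and 25.9% of all genes, and 33 fell and 1 rose in S49 (Neo) controls, beside 21.7% and 25.1%, with medians of -0.22 and -0.26. When the library that stands apart was left out of the spread, 40 fell in each line, with 67.4% and 64.7% of all genes called. Psme3 fell by 0.53 and 0.46 (adjusted p = 1.77e-07 and 1.5e-06) and Psmg3, the PAC3 chaperone, by 0.49 and 0.47 (adjusted p = 0.00189 and 0.00293) in S49 (Bcl-2) and S49 (Neo) controls. Of the immunoproteasome genes only Psmb10 was called lower with all libraries, in S49 (Neo) controls (-0.36, adjusted p = 0.00186). Psme1 rose in both lines (0.20 and 0.22, adjusted p = 0.0118 and 0.00484), though in neither with median centring, and not in S49 (Bcl-2) cells without 48 h control replicate 4 (adjusted p = 0.0626), and Psmb9 rose in S49 (Bcl-2) controls (0.29, adjusted p = 0.00329). The 48 h dex comparisons were made against these 48 h controls.

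Of 14 proteasome partners whose symbols do not begin with Psm, 10 fell and 2 rose at 24 h in S49 (Bcl-2) cells (35.1% and 32.5% of all genes) and 7 fell and 1 rose at 48 h (35.2% and 33.9%). The counts in S49 (Neo) cells were 3 lower and 2 higher at 24 h, near or below the 25.5% and 25% of all genes, and none lower and 3 higher at 48 h (28% and 27.3%). Without the library that stands apart they were 9 lower and 2 higher at each time in S49 (Bcl-2) cells, and 7 and 2 at 24 h and 5 and 3 at 48 h in S49 (Neo) cells. In that fit 37.2% and 41.5% of all genes were lower in S49 (Bcl-2) cells at 24 h and 48 h. The shares lower in S49 (Neo) cells were 35% and 35.7%, and the 5 lower at 48 h lay near the latter. The shares higher were 37.7% and 39.5% in S49 (Bcl-2) and 31.7% and 35.1% in S49 (Neo) cells. Pomp, the maturation factor of the core, changed by -0.29 and -0.52 in S49 (Bcl-2) cells, both falls past the test (adjusted p = 2.41e-08 at 48 h), and by -0.14 and -0.10 in S49 (Neo) cells, which passed only without the library that stands apart (adjusted p = 0.00863 and 0.0485). Adrm1, the Rpn13 ubiquitin receptor, fell in S49 (Bcl-2) cells by 0.41 (by 0.52 without replicate 3) and 0.24 and in S49 (Neo) cells at 24 h by 0.22 (adjusted p = 0.0154), and was at 0.05 at 48 h. Uchl5, the deubiquitinase held by Rpn13, fell by 1.22 at 24 h in S49 (Bcl-2) cells (adjusted p = 1.58e-07), where replicate 3 was at 10.39 and the other dex libraries at 11.57 to 11.73, and by 0.91 without that replicate (adjusted p = 1e-13). Fam192a, which binds PA28 gamma, rose in all 4 comparisons, by 0.31 and 0.51 in S49 (Bcl-2) and by 0.23 and 0.36 in S49 (Neo) cells (adjusted p = 1.14e-13 for the largest).

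Nfe2l1 and Nfe2l2 encode the factors that bind antioxidant response elements, and Nfe2l1 is the one that drives proteasome genes when the proteasome is inhibited. The part of these 2 factors in the levels of the members was not tested. Nfe2l1 fell by 1.03 at 48 h in S49 (Neo) cells (adjusted p = 1.47e-10). Its change in S49 (Bcl-2) cells was -0.06 at 24 h (-0.14 without replicate 3, adjusted p = 0.13) and a fall by 0.47 at 48 h. Nfe2l2 fell by 0.41 and 0.37 in S49 (Neo) cells (adjusted p = 8.82e-08 and 3.08e-07) and by 0.44 at 24 h in S49 (Bcl-2) cells (adjusted p = 1.17e-08), and changed by -0.11 at 48 h, which passed only without the library that stands apart (adjusted p = 0.00895). Over the 10 tested regulators 6 fell and 1 rose at 24 h and 5 fell and 1 rose at 48 h in S49 (Bcl-2) cells, beside 35.1% and 35.2% of all genes lower, and 5 fell with 1 and 2 that rose in S49 (Neo) cells, beside 25.5% and 28% lower. The numbers that fell without the library that stands apart were 7 and 6 in S49 (Bcl-2) cells and 8 and 6 in S49 (Neo) cells. Over all genes in that fit 37.2% and 41.5% were lower in S49 (Bcl-2) and 35% and 35.7% in S49 (Neo) cells.

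The genes that load proteasome products onto MHC class I molecules mostly rose in S49 (Bcl-2) cells. Of 12 MHC class I processing genes 9 rose and 1 fell at both times in that line (medians 0.60 and 0.70), beside 32.5% and 33.9% of all genes higher. In S49 (Neo) cells 6 rose and 1 fell at 24 h and 6 rose and none fell at 48 h (medians 0.25 and 0.42), beside 25% and 27.3% of all genes higher. Leaving out the library that stands apart, 11 and 9 rose in S49 (Bcl-2) and 8 and 7 in S49 (Neo) cells. Over all genes in that fit 37.7% and 39.5% were higher in S49 (Bcl-2) and 31.7% and 35.1% in S49 (Neo) cells. Tap2, a subunit of the peptide transporter, rose by 1.88 and 1.65 in S49 (Bcl-2) and by 1.80 at 24 h in S49 (Neo) cells, and rose there at 48 h too (adjusted p = 3.04e-19). B2m, the invariant chain of MHC class I, rose by 1.12 (1.37 without replicate 3) and 2.04 in S49 (Bcl-2) and by 1.37 and 2.02 in S49 (Neo) cells (adjusted p = 4.52e-14 and 9.62e-14 at 48 h). Nlrc5, which switches on MHC class I genes, rose by 1.15 and 1.25 in S49 (Bcl-2) cells (adjusted p = 5.04e-14 and 3.77e-15).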

How the data were processed

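RNA-seq of 32 S49 libraries was deposited by the authors as 1 table of log2 normalized values per gene (24538 genes, values from -2.38 to 20.15). The submitters' notes and the study's methods name Trim Galore, STAR against mm10, featureCounts and DESeq2. Which transform gave the log2 values, the counting of strand and the read total of each library are not given in the sources used here. The study's methods give only a range of reads per sample. Folds are therefore on the scale of the deposited values, and no count test or counting interval was used. Every column matched 1 sample by its title (0 columns without a sample), no pair of libraries held identical values (0 pairs), and 26 symbols had been turned into dates by spreadsheet software.

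Genes with a mean over all libraries of at least 3.46, the log2 of 10 reads plus 1, were tested (11562). The 8 group means were fitted in 1 model over the 32 libraries with limma 3.58.1 (R 4.3.3; trended empirical Bayes spread, Benjamini-Hochberg over all tested genes, adjusted p under 0.05), with dex against control, differences of responses and controls as contrasts. Both lines share this estimate of the spread. Ratios were compared by the exact permutation test of 4 against 4 libraries in R. The correlations with GC content were taken with SciPy 1.17.1 (Python 3.11.15). On simulated data for the 48 h dex comparison in S49 (Bcl-2) cells, with 50 changed genes of each size among 11562, log2 changes of 1, 0.5, 0.25 and 0.125 were called in 96, 66, 34 and 2%, and for the 48 h difference between lines in 90, 38, 12 and 2%. In the data 69.1% and 40.8% of all genes were called in these 48 h comparisons. The Benjamini-Hochberg cutoff is less strict where more genes change, so the simulated shares do not carry over to the data. Promoters are RefSeq windows of 250 bases before to 50 after the start (GRCm38.p6).

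The members and the lists (partners, regulators, ubiquitin factors, MHC class I processing, interferon factors, cell type markers) were chosen with earlier results of these data known. Named throughout were the 5 immunoproteasome and 3 constitutive catalytic genes; among the others that passed the test, the 3 largest rises and falls of each dex comparison and the 2 largest in each direction of each other comparison; members under the filter; and of each list up to 3 genes with the smallest p, with Nfe2l1, Nfe2l2, Pomp, Adrm1, Tap1, B2m and Irf1. Some genes that this rule names are not reported here. Members counted in both lines, those that held a motif and the values of Psma3, Psmc6 and Psmd13 beyond this rule were chosen after their values were seen. The replicate numbers come from the sample titles. Same-numbered control and dex libraries deviated from their group means with correlations of 0.0334 to 0.476, over 0.1 in 12 of 16 pairs, and all 4 pairs were over 0.1 only in S49 (Bcl-2) cells at 24 h. Alternatives were a stricter filter and none, median centring, fits of 1 line, replicate blocks, array weights, an untrended spread and leaving out each replicate.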

Additional observations from a re-analysis of the deposited data

Results flagged for a closer look

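In 13 of 208 groups of 4 libraries tested, over 26 genes, 1 library lay far from the other 3 (chance alone marks about 1 group in 20). Of these, 5 were in S49 (Bcl-2) 24 h dex replicate 3: Psmc6 was at 9.86 (the others at 12.47 to 12.58), Psma3 at 11.81 (12.85 to 13.03), Psma4 at 12.57 (13.67 to 13.79), Psmd14 at 11.71 (12.49 to 12.59) and Psmf1 at 11.19 (10.84 to 10.90). At 48 h in S49 (Bcl-2) cells Psmb8 in dex replicate 3 was at 12.31 (12.57 to 12.60), Psmf1 in dex replicate 1 at 10.65 (10.74 to 10.76), Psmb9 in control replicate 4 at 11.42 (11.13 to 11.16) and Psmd13 in control replicate 4 at 12.54 (12.58 to 12.59). In S49 (Neo) cells Psme1 in 24 h control replicate 3 was at 11.67 (11.81 to 11.82), Psma4 in 48 h dex replicate 4 at 14.00 (14.13 to 14.15), and Psmc1 in 48 h control replicate 4 at 12.74 (12.80 to 12.81) and in 48 h dex replicate 4 at 13.0 (13.07 in the others).

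Among the genes named by rule for each contrast (the immunoproteasome and constitutive catalytic genes and the 2 largest differences in each direction), 20 differences between responses passed the limma test and are listed here, and the others that passed are counted in the report. From 24 h to 48 h in S49 (Bcl-2) cells the response differed by -0.54 for Psmb8, -0.46 for Psmb9, -0.50 for Psmb10, -0.28 for Psme1, -0.30 for Psme2, -0.41 for Psmd13, -0.34 for Psmd2 and 1.00 for Psma4. In S49 (Neo) cells it differed by -0.31 for Psme1, 0.64 for Psma4 and 0.25 for Psme3. Between the lines (S49 (Bcl-2) minus S49 (Neo)) it differed at 24 h by 0.38 for Psmb10, -0.27 for Psmb7, -0.44 for Psmd12 and -0.36 for Psme3, and at 48 h by -0.58 for Psmb8, -0.56 for Psmb6, -0.49 for Psmb7, -0.59 for Psmd13 and -0.56 for Psmc4.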

How the results depend on the processing

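No change of a named gene that passed the test with all libraries reversed direction under any alternative. The direction of changes that did not pass was not checked, and counts were compared by size only. The median change of the members moved by less than a fixed log2 limit in 216 of 216 alternatives, a limit larger than the smallest medians. The ratios kept their side in 96 of 96, and the count of members called stayed within 1.5 times in 180 of 225. For named genes 80 of 2362 values fell short of the threshold and 46 newly passed it. The shares of all genes called in these alternative fits are not given here unless printed. The counts below therefore show how calls moved with the fit and are not a result about the members. The counts that moved were, for dex in S49 (Neo) cells at 24 h (19), 33 with libraries of 1 line and 34 with array weights. At 48 h (13) they were 24 and 22. For the difference between times in S49 (Bcl-2) cells (12) it was 19 with weights, and in S49 (Neo) cells (4) 2 without a filter, 22 in 1 line and 25 with weights. For the difference between lines at 24 h (12) it was 6 without a filter, 7 with centring and 32 with weights, and for the controls of the lines 2 with centring and 19 with weights at 24 h (4), and 1 without a filter and 18 with weights at 48 h (2).

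With replicate 3 of the S49 (Bcl-2) 24 h dex group left out of every comparison, chosen after seeing the data, the counts became 33 and 22 for dex in S49 (Neo) cells at 24 h and 48 h, 15 for the difference between times in that line, and 11 for the controls of the lines at each time. The shares of all genes called in that fit were, in the same order, 66.8%, 70.8%, 39.8%, 43.4% and 42.5%. With all libraries they were 50.5%, 55.3%, 19.2%, 26.9% and 25.9%, so calls rose over all genes too. Leaving out each replicate of a comparison gave 34 to 39 and 37 to 38 (dex in S49 (Bcl-2), 24 h and 48 h), 15 to 19 and 11 to 14 (S49 (Neo)), 9 to 16 and 1 to 5 (between times), 6 to 30 and 31 to 35 (between lines), 2 to 4 and 1 to 4 (controls of the lines) and 29 to 35 and 29 to 33 (controls over time). The count between lines at 24 h was 30 without that replicate 3, and 6 or 7 without S49 (Neo) control replicate 1, 3 or 4, S49 (Neo) dex replicate 1, 2 or 3, or S49 (Bcl-2) control replicate 1, 2 or 3. Between times in S49 (Neo) cells it was 2 without 48 h dex replicate 1, and 1 without 24 h control replicate 2, 24 h dex replicate 4 or 48 h control replicate 4. For the controls it was 2 without S49 (Bcl-2) replicate 2 at 24 h, and at 48 h 4 without S49 (Bcl-2) replicate 4 and 1 without any other S49 (Bcl-2) replicate or S49 (Neo) replicate 1 or 3.

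The replicate block, which pairs libraries by number, moved the count to 11 over all libraries and 9 within line and time for the difference between times in S49 (Neo) cells (4), to 7 for the controls at 24 h and to 6 at 48 h, and moved no other count past 1.5 times. As the numbers are not stated to mark shared cultures, and 13 of 16 pairs correlated best with their own number, the pairing is a hint from the data only. Depth is unknown. In simulation 34% of log2 changes of 0.25 were called in S49 (Bcl-2) cells at 48 h. Far fewer genes changed there than the 69.1% called in the data, so this share does not measure what the real comparison could find.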

Other observations

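Ubiquitin, shuttle and p97 genes, which act before the proteasome, mostly fell in S49 (Bcl-2) cells: of 18 tested, 13 fell and 4 rose at 24 h (35.1% and 32.5% of all genes) and 11 fell and 3 rose at 48 h (35.2% and 33.9%). For S49 (Neo) cells the counts were 7 lower and 1 higher at 24 h (25.5% and 25%), and 3 lower and 4 higher at 48 h (28% and 27.3%). Without the library that stands apart, S49 (Bcl-2) 24 h dex replicate 3, they were 12 and 4, 13 and 4, 10 and 4, and 9 and 6. The shares of all genes lower and higher in that fit were, in the same order, 37.2% and 37.7%, 41.5% and 39.5%, 35% and 31.7%, and 35.7% and 35.1%. Ubqln1, a shuttle that carries tagged proteins, fell by 0.47 and 0.34 in S49 (Bcl-2) cells (limma adjusted p = 1.18e-10 and 3.56e-08), and Uba1, the main ubiquitin-activating enzyme, fell by 0.34 (0.42 without replicate 3) at 24 h in that line and by 0.29 and 0.20 in S49 (Neo) cells (adjusted p = 1.21e-05 and 0.00113). Vcp, the p97 unfoldase, fell by 0.43 at 48 h in S49 (Bcl-2) cells (adjusted p = 1.08e-08).

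Of 16 genes of the interferon response, 11 rose and 1 fell at 24 h and 7 rose and 3 fell at 48 h in S49 (Bcl-2) cells, beside 32.5% and 33.9% of all genes higher, and 11 rose and none fell at 24 h and 6 rose and 3 fell at 48 h in S49 (Neo) cells, beside 25% and 27.3% higher. The 48 h counts lay nearer to those shares than the 24 h counts. When that library was left out, 11 and 8 rose in S49 (Bcl-2) and 11 and 9 in S49 (Neo) cells. Over all genes in that fit 37.7% and 39.5% were higher in S49 (Bcl-2) and 31.7% and 35.1% in S49 (Neo) cells. Irf8, a factor of lymphoid and myeloid cells, rose by 1.86 and 1.25 in S49 (Bcl-2) and by 2.13 and 1.73 in S49 (Neo) cells (adjusted p = 3.62e-17 for the largest). Irf1 was called higher by 0.27 at 24 h (0.20 without replicate 3, adjusted p = 0.0916) and fell by 0.53 at 48 h in S49 (Bcl-2) cells, and fell by 0.65 at 48 h in S49 (Neo) cells, where its change at 24 h was -0.11. In each line Irf1 was lower with dex at 48 h, and its part in the level of Psmb9 was not tested.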
